A study of Mus musculus with 10 samples.

Results

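The nuclear-encoded subunits of mitochondrial complex I (NADH:ubiquinone oxidoreductase) were examined in inguinal white fat of mice lacking PexRAP in adipose tissue. Members were the protein-coding rows of the count table whose symbol is Nduf followed by a, b, c, s or v and a digit, 1 row per gene identifier. The rule found 37 genes among 40501 gene identifiers, and it used no measured value. Of these, 35 encode complex I subunits, and the remaining pair is Ndufa4, whose product is now assigned to complex IV, and its paralogue Ndufa4l2.

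Complex I is the entry point of electrons from NADH into the respiratory chain. Its peripheral arm reaches into the mitochondrial matrix and consists of the N module, which oxidises NADH at a flavin, and the Q module, which passes electrons over iron-sulfur clusters to ubiquinone. Its membrane arm pumps protons and is built around core proteins made from mitochondrial DNA, surrounded by supernumerary subunits made from nuclear genes. In fat tissue, complex I content is known to be high in brown and beige adipocytes and low in white adipocytes.

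RNA-seq had been made from inguinal white adipose tissue of male mice of the C57/BL6J background in 2 groups. PexRAP-AKO mice (5 libraries, numbered 1, 2, 3, 5 and 6) were cre-positive, and Control mice (5 libraries, numbered 2, 3, 5, 7 and 8) were cre-negative. PexRAP (gene Dhrs7b, also called ADHAPR) is a peroxisomal reductase of ether lipid synthesis. All mice ate chow, and the labels give 8 weeks both as the feeding time and as the age. Neither the Cre driver nor the floxed allele is given in the sources used here. The labels number the samples without saying more of the animals, so p-values measure the spread between these samples. Values below are counts per 1000000 after scaling (CPM), and each series of 5 values follows the library order given here.

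Library totals ran from 11593437 to 19881168 counts in Control and from 11274865 to 16513769 in PexRAP-AKO. Control 3 and Control 5 were the deepest Control libraries, and the other Control libraries held at most 12120019 counts. The targeted Dhrs7b stood at 82.4 ± 12.8 CPM in Control against 19.9 ± 2.26 CPM in PexRAP-AKO (mean ± SD, 5 libraries each; log2 fold change -2.05, edgeR adjusted p = 1.54e-05), with no overlap between groups. White adipocyte markers, summed over 10 genes, reached 49975 to 66298 CPM in Control and 50686 to 63191 CPM in PexRAP-AKO, so markers of the labelled tissue were abundant in every library.

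Complex I subunit transcripts stood higher in PexRAP-AKO than in Control by a small and even margin, but none passed the test on its own. The summed level of the 35 subunits was 3951 ± 596 CPM in Control against 4986 ± 456 CPM in PexRAP-AKO (mean ± SD, 5 libraries each). By library, it was 3889.5, 4651, 4386, 3702 and 3129 CPM in Control and 4514, 5545, 4975, 5331 and 4566 CPM in PexRAP-AKO. Only Control 3 reached into the PexRAP-AKO range. The 35 log2 fold changes lay between 0.24 (Ndufv1, which binds NADH and the flavin) and 0.48 (Ndufb6, a membrane arm subunit), that is 1.18- to 1.40-fold. Their standard deviation across genes was 0.063, and the median standard error of 1 gene's fold change was 0.12; differences between subunits were not tested. The median over all 37 members was 0.35, beside a median of -0.00065 over the 14913 genes tested. In bulk tissue, a change in the number of cells of a type and a change in RNA per cell cannot be told apart.

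**Figure D1:**
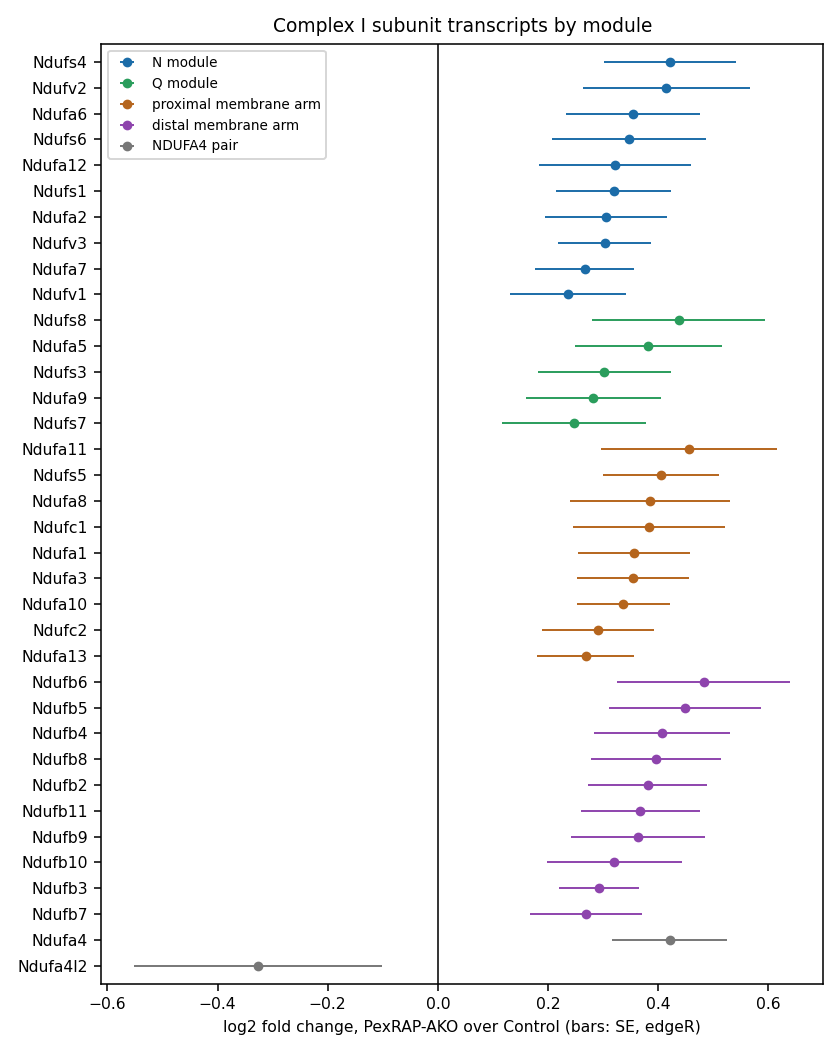
Log2 fold change of 36 members, PexRAP-AKO over Control (x axis), grouped by module of the complex; points are edgeR estimates and bars are 1 standard error. The complex I subunits plotted lie between 0.24 and 0.48, and Ndufa4l2 alone lies below 0.

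By edgeR's quasi-likelihood test with Benjamini-Hochberg adjustment over all genes, 0 of 37 members passed the threshold of 0.05, where 0.101% of all genes tested did and 0.0939% did so in the higher direction. The adjusted p-values of the 35 subunits ran from 0.127 to 0.398. At an unadjusted p under 0.05, 35 of 37 members were higher in PexRAP-AKO, against 9.01% of all genes, and 36 of 37 had a positive fold change, against 49.8%. Members share libraries and vary together across them, so these counts are not 37 separate observations. DESeq2 called 10 members, all higher, where 3% of the genes it gave an adjusted p were called higher. These members were Ndufa1, Ndufa3, Ndufa4, Ndufa10, Ndufb2, Ndufb3, Ndufb8, Ndufs4, Ndufs5 and Ndufv3. With limma voom the count was 0 (0.121% of all genes higher), and with sample quality weights added it was 0 as well (0.59%). With 1 surrogate variable in edgeR it was 5 (0.838%): Ndufa1, Ndufs4, Ndufb8, Ndufa10 and Ndufb6.

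In 6 members, every PexRAP-AKO library lay above every Control library: Ndufv3, Ndufa10, Ndufa3, Ndufb2, Ndufb3 and Ndufa4. Of all genes tested, 2.08% showed this pattern and 1.33% the opposite one. Among 21 mitochondrial housekeeping genes (import, chaperones, cristae), 4 showed it as well. No member had all PexRAP-AKO libraries below all Control libraries.

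Several promoters of the members are shown first by the letters they carry near the start of transcription. Promoter windows of 250 bases before to 50 bases after the start were matched for 32 of 37 members in RefSeq (GRCm38.p6). Ndufa2, Ndufa4l2, Ndufb9 and Ndufs1 were among those without a window. Each window was searched on both strands for 4 words linked with regulators of respiratory chain genes, none of which overlapped another in a member: CCGGAAGT (GABPA), AAGATGGC (YY1), AAGGTCA (ERR) and a palindrome of 10 bases (NRF1), spelled by the capitals in the line of Ndufa11. Matches were counted by gene, so a gene with more than 1 window counted once. At least 1 word was present in 12 members and none in 20.

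AAGATGGC stood in 7 of the 32 members with a window (21.9%). It stood in 3.19% of all 27025 genes with a window and in 4.97% of the 11064 of them that were tested. All of these matches read on the sense strand after the start of transcription, with the first base at position 23 to 39 counted from the start. They are shown 5′ to 3′ on the gene's own strand, with the word in capitals, because the same word recurs at nearly the same place in subunits of 4 modules. Ndufs4 and Ndufs6 are N module genes, Ndufa9 and Ndufs7 are Q module genes, Ndufa3 and Ndufc1 are of the proximal membrane arm, and Ndufb8 is of the distal membrane arm.
Ndufs4 (chr13:114388045-114388074, minus): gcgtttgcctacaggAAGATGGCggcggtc
Ndufs6 (chr13:73328433-73328462, minus): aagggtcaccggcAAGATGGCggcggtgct
Ndufa9 (chr6:126849097-126849126, minus): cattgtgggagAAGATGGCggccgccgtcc
Ndufs7 (chr10:80249462-80249491, plus): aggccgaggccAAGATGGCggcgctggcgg
Ndufa3 (chr7:3617384-3617413, plus): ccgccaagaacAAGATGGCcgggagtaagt
Ndufc1 (chr3:51408915-51408944, minus): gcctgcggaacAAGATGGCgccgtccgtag
Ndufb8 (chr19:44555393-44555422, minus): tgaaccgcggagaaggtgAAGATGGCtgcc

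In all 7 of these genes the ATG inside the word is the annotated start codon (GENCODE M21), a check chosen after the matches were seen. The start codon lay within 50 bases after the start of transcription in 11 of 32 members (34.4%), against 1351 of 10523 tested genes (12.8%). Among those tested genes, 162 (1.54%) had the word on the start codon. From its ATG on, the match is therefore also protein-coding sequence. The match is a description of letters, not of a bound site. The 7 genes with the word had log2 fold changes of 0.25 to 0.42 (median 0.35), and the 24 complex I genes with a window but without the word had 0.24 to 0.48 (median 0.36).

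The other words were rarer, and 1 example of each kind of match is printed with the word in capitals. The NRF1 palindrome stood in 1 member, Ndufa11, 60 bases before the start. This is 3.12% of members, beside 1.07% of all genes with a window and 2.19% of those tested. CCGGAAGT stood in 1 member (3.12%, beside 4.31% and 8.47%), Ndufs3, on the antisense strand, so its reverse complement is in capitals. AAGGTCA stood in 3 members (9.38%, beside 5.38% and 4.06%), Ndufb2, Ndufb4 and Ndufs5. For a window without a match, only the absence of these letters is recorded.
Ndufa11 (chr17:56717691-56717720, plus): acctgcactgcGCGCATGCGCgcacgcctt
Ndufs3 (chr2:90904703-90904732, minus): tgcacatttccACTTCCGGtccgtgccctt
Ndufb4 (chr16:37654405-37654434, minus): tcctgagcctgAAGGTCAgactcgagaggg

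The N module, which takes electrons from NADH, had 10 members, with a summed level of 1297 ± 192 CPM in Control against 1618 ± 137 CPM in PexRAP-AKO (mean ± SD, 5 libraries each). All 10 had an unadjusted p under 0.05 and none passed the adjusted threshold, with a median log2 fold change of 0.32. Ndufv3, a supernumerary subunit at the tip of the arm, read 163, 176, 159, 156 and 138 CPM in the Control libraries and 186, 233, 187, 184 and 187 CPM in the PexRAP-AKO libraries. The groups did not overlap, and PexRAP-AKO 2 stood well above the other 4 libraries of its group (log2 fold change 0.30, SE 0.08, adjusted p = 0.161). Ndufs4 (chr13:114287795-114388258, GRCm38), whose loss causes a Leigh-like encephalopathy in mice, read 70.2, 93.5, 89.1, 75.3 and 57.4 CPM in Control and 91.6, 111, 102, 114 and 98.9 CPM in PexRAP-AKO. Control 3 exceeded the lowest PexRAP-AKO library, PexRAP-AKO 1, so the groups overlapped by this pair (log2 fold change 0.42, SE 0.12, adjusted p = 0.169). Ndufs1, the large iron-sulfur protein of the module, read 191, 227, 203, 172 and 150.0 CPM in Control and 230.1, 248, 236, 254 and 208 CPM in PexRAP-AKO. Here Control 3 lay above PexRAP-AKO 6 alone (log2 fold change 0.32, SE 0.10, adjusted p = 0.20). Of the other subunits, the iron-sulfur protein Ndufv2 had a log2 fold change of 0.41, the supernumerary Ndufs6 and Ndufa6 both 0.35, Ndufa12 0.32, Ndufa2 0.31 and Ndufa7 0.27.

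The Q module, which hands electrons to ubiquinone, had 6 members, with summed levels of 803 ± 134 CPM in Control against 1002 ± 102 CPM in PexRAP-AKO (mean ± SD, 5 libraries each; median log2 fold change 0.31). Of these, 5 had an unadjusted p under 0.05; the exception was Ndufs7, which carries the last iron-sulfur cluster before ubiquinone (log2 fold change 0.25, adjusted p = 0.398). Ndufa5, a supernumerary subunit on the outside of the arm, read 77.2, 89.6, 85.5, 71.5 and 57.0 CPM in Control and 79.7, 105, 106, 119 and 87.9 CPM in PexRAP-AKO. Ndufs8, which carries a pair of iron-sulfur clusters, read 80.5, 95.4, 98.3, 74.0 and 62.6 CPM in Control and 80.7, 118, 124, 136 and 98.5 CPM in PexRAP-AKO. For both genes PexRAP-AKO 1 lay among the Control libraries, and for Ndufa5 PexRAP-AKO 6 lay below Control 3 as well. The log2 fold changes were 0.38 (SE 0.13, adjusted p = 0.219) for Ndufa5 and 0.44 (SE 0.16, adjusted p = 0.228) for Ndufs8. The core subunit Ndufs3 had 0.30 and Ndufa9, a subunit with a bound NADPH, 0.28.

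The proximal part of the membrane arm had 9 nuclear members, with summed levels of 776 ± 105 CPM in Control against 984 ± 81.4 CPM in PexRAP-AKO (mean ± SD, 5 libraries each; median log2 fold change 0.36), all 9 at an unadjusted p under 0.05. Ndufa10, related to nucleoside kinases, read 186, 211, 190.1, 172 and 157 CPM in Control and 217, 258, 236, 229 and 218 CPM in PexRAP-AKO. The groups were separate by a narrow gap between Control 3 and PexRAP-AKO 1 (log2 fold change 0.34, SE 0.08, adjusted p = 0.132). Ndufs5, a small protein of the intermembrane space side, read 21.2, 24.9, 20.3, 17.3 and 18.2 CPM in Control and 24.4, 31.0, 27.1, 27.9 and 24.7 CPM in PexRAP-AKO. Control 3 was just above the lowest PexRAP-AKO libraries, 1 and 6 (log2 fold change 0.41, SE 0.10, adjusted p = 0.143). Ndufa1, a single-pass membrane protein encoded on the X chromosome, read 76.4, 106, 89.2, 73.1 and 74.9 CPM in Control and 112, 118, 99.3, 106 and 103 CPM in PexRAP-AKO. Control 3 again lay within the PexRAP-AKO range and the other 4 Control libraries below it (log2 fold change 0.36, SE 0.10, adjusted p = 0.166). Ndufa3, another small membrane subunit, read 112, 134, 135, 117 and 94.3 CPM in Control and 137, 167, 151, 164 and 138 CPM in PexRAP-AKO. Its groups did not overlap (log2 fold change 0.35). The remaining values were 0.46 for Ndufa11, 0.38 for both Ndufa8 and Ndufc1, 0.29 for Ndufc2 and 0.27 for Ndufa13.

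The distal part of the membrane arm had 10 nuclear members, summing to 1075 ± 167 CPM in Control against 1382 ± 140 CPM in PexRAP-AKO (mean ± SD, 5 libraries each; median log2 fold change 0.37), all 10 at an unadjusted p under 0.05. Ndufb3, a small membrane subunit, read 133, 141, 131, 115 and 117 CPM in Control and 158, 169.8, 149.5, 160.3 and 144 CPM in PexRAP-AKO. It had the smallest adjusted p of the complex I subunits, 0.127, at one of the smaller log2 fold changes, 0.29 (SE 0.07), and its libraries lay close together. Ndufb2 read 16.9, 20.6, 17.8, 16.5 and 13.3 CPM in Control and 20.8, 22.7, 20.7, 25.4 and 21.8 CPM in PexRAP-AKO. Its groups were separate by a narrow gap between Control 3 and PexRAP-AKO 3 (log2 fold change 0.38, SE 0.11, adjusted p = 0.163). Ndufb11, a single-pass subunit encoded on the X chromosome, read 75.6, 86.7, 81.7, 72.6 and 57.9 CPM in Control and 82.0, 102, 100.4, 109.9 and 89.7 CPM in PexRAP-AKO. PexRAP-AKO 1 lay between Control libraries 5 and 3 (log2 fold change 0.37, SE 0.11, adjusted p = 0.175). Ndufb4, the complex I member with the fewest counts, read 13.5, 17.7, 16.9, 15.9 and 11.8 CPM in Control and 18.5, 20.8, 22.9, 21.9 and 16.7 CPM in PexRAP-AKO. Beside Ndufb6 at 0.48, the other log2 fold changes were 0.45 for Ndufb5, 0.40 for Ndufb8, 0.36 for Ndufb9, 0.32 for Ndufb10 and 0.27 for Ndufb7.

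Ratios between the summed levels of modules were compared for 3 pairs. The ratio of summed N module to summed Q module CPM was 1.62 ± 0.0326 in Control against 1.62 ± 0.0659 in PexRAP-AKO (mean ± SD, 5 libraries each). The ratio of proximal to distal membrane arm was 0.724 ± 0.0192 in Control against 0.713 ± 0.0157 in PexRAP-AKO, a difference smaller than either SD. The ratio of N module to distal membrane arm was 1.21 ± 0.0253 in Control against 1.17 ± 0.0269 in PexRAP-AKO, a difference larger than either SD, with libraries of the groups overlapping. None of these ratios was tested. The 7 catalytic core subunits encoded in the nucleus had a median log2 fold change of 0.31 and the 28 supernumerary subunits 0.36, and the difference was not tested.

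Ndufa4 and Ndufa4l2 went opposite ways in their values. Ndufa4 (chr6:11900292-11907497), a complex IV subunit, read 269, 313, 287, 274 and 208 CPM in Control and 336, 406, 342, 380.1 and 346 CPM in PexRAP-AKO. The groups did not overlap, and the log2 fold change was 0.42 (SE 0.10, adjusted p = 0.127). Ndufa4l2 (chr10:127514967-127517154), a paralogue known to be induced in hypoxia, read 5.10, 5.39, 4.22, 6.10 and 6.19 CPM in Control and 4.86, 5.59, 2.13, 3.77 and 5.02 CPM in PexRAP-AKO. It was the only member with a negative log2 fold change, -0.33 (SE 0.22, adjusted p = 0.522), and its groups overlapped widely.

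Per length, the subunits differed far more from each other than between groups. Control levels per kilobase of annotated exon ran from 3.03 CPM per kb for Ndufb2 to 262 CPM per kb for Ndufb9, with a median of 67.7. Near the top were Ndufa2 with 234 and Ndufa1 with 200.4 CPM per kb, and near the bottom Ndufb4 with 7.91. Exon length was the union over all annotated transcripts, which includes retained introns; for Ndufb2 it came to 5628 bases, so its level per length is a low estimate.

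The libraries kept nearly the same order from gene to gene. Over the 36 members other than Ndufa4l2, Control 8 was the lowest of the 10 libraries in 33 and Control 7 in 3. The highest was PexRAP-AKO 2 in 22, PexRAP-AKO 5 in 13 and PexRAP-AKO 3 in 1. Within Control, the highest library was Control 3 in 24 members and Control 5 in 12, the same libraries that were sequenced deepest. In PexRAP-AKO depth and level did not go together in this way: PexRAP-AKO 5 was the shallowest library and PexRAP-AKO 2 the deepest. The part of depth in the result was not tested. Without Control 3, edgeR called 1 member, Ndufa1 (adjusted p = 0.0399), where 0.261% of all genes were called higher. Leaving out Control 3 and Control 5 together, a choice made after seeing the data, raised the median log2 fold change to 0.50. The count of members called rose to 12, where 1.42% of all genes were called higher. Without Control 8 the median fell to 0.28 and 0 members were called. There 27 of 37 members were higher at an unadjusted p under 0.05 in edgeR, against 6.53% of all genes. With all libraries, 35 were, against 9.01%. Leaving out PexRAP-AKO 6 and Control 8 together, a planned choice, gave a median of 0.31 and 31 such members, against 7.13%.

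**Figure D2:**
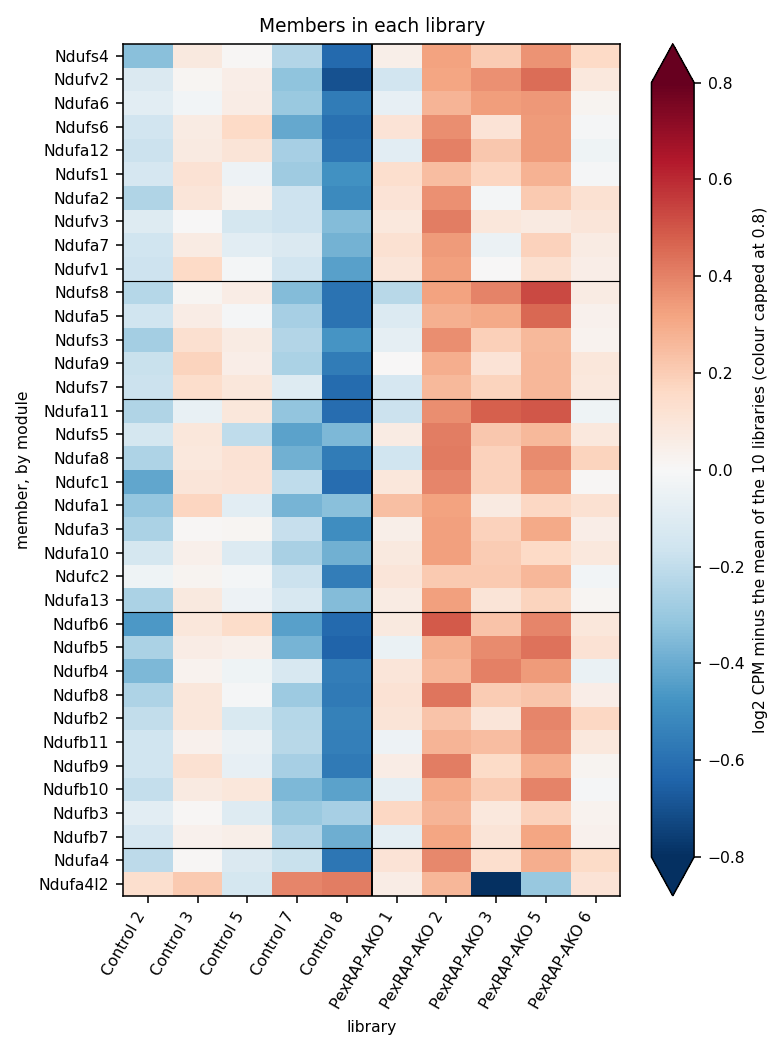
Log2 CPM of 36 members (rows, by module) in each library (columns), as the difference from that member's mean over the 10 libraries. In most rows Control 8 is the lowest column and PexRAP-AKO 2 or 5 the highest.

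Genes that build complex I had a median log2 fold change of 0.19. Of 17 assembly factors tested, all 17 had a positive log2 fold change (0.03 to 0.41), 7 had an unadjusted p under 0.05 and 0 passed the edgeR threshold. Ndufaf1, a factor of the intermediate assembly of the membrane arm, averaged 20.6 ± 2.41 CPM in Control against 24.8 ± 1.16 CPM in PexRAP-AKO, with no overlap (log2 fold change 0.27, adjusted p = 0.188). Ndufaf4 had 0.41, Foxred1 0.25 and Tmem186 0.25. Ndufab1, the mitochondrial acyl carrier protein and a true subunit that the naming rule leaves out, averaged 36.4 ± 3.93 and 41.4 ± 4.20 CPM (log2 fold change 0.18, SE 0.09, adjusted p = 0.357).

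Subunits encoded by the mitochondrial genome were spread widely between the PexRAP-AKO libraries. Of the 7 mt-Nd genes, which encode the membrane core, mt-Nd4l had 0 counts in every library and mt-Nd3 was under the filter on low counts. The other 5 had log2 fold changes of 0.63 for mt-Nd1, 0.46 for mt-Nd2, 0.33 for mt-Nd4, 0.31 for mt-Nd5 and 0.25 for mt-Nd6, of which mt-Nd1 alone had an unadjusted p under 0.05 (adjusted p = 0.202). Summed, they spanned 4320 to 5923 CPM in Control and 4232 to 9700 CPM in PexRAP-AKO. PexRAP-AKO 1 was the lowest of all 10 libraries for this sum and PexRAP-AKO 3 the highest, an order unlike that of the nuclear subunits.

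Other mitochondrial genes also stood higher in PexRAP-AKO. Among 21 mitochondrial housekeeping genes (import, chaperones, cristae; none of the respiratory chain), all 21 had a positive log2 fold change (0.08 to 0.43, median 0.24), 17 had an unadjusted p under 0.05 and 0 passed the edgeR threshold. DESeq2 called 5 of these 21 higher, 3 of 16 genes of the NADH shuttles and matrix dehydrogenases, 1 mt-Nd gene (mt-Nd1) and 1 other donor to ubiquinone (Etfdh). Phb, a prohibitin of the inner membrane, had 0.43 (edgeR adjusted p = 0.107) and Immt of the cristae junctions 0.32. The matrix protease subunit Clpp had 0.25 and the import receptor Tomm70a 0.18. In these 4 genes every PexRAP-AKO library lay above every Control library. The summed housekeeping level was 2716 ± 343 CPM in Control against 3322 ± 312 CPM in PexRAP-AKO. Complex I per housekeeping transcript, as the ratio of the sums, was 1.45 ± 0.0549 in Control against 1.50 ± 0.0332 in PexRAP-AKO (mean ± SD, 5 libraries each), with overlapping groups. With the housekeeping score as a covariate in edgeR, the median log2 fold change of the members was -0.012 and 16 of 37 were positive. In this fit 0 members had an unadjusted p under 0.05, where 2.29% of all genes were higher at that threshold.

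**Figure D3:**
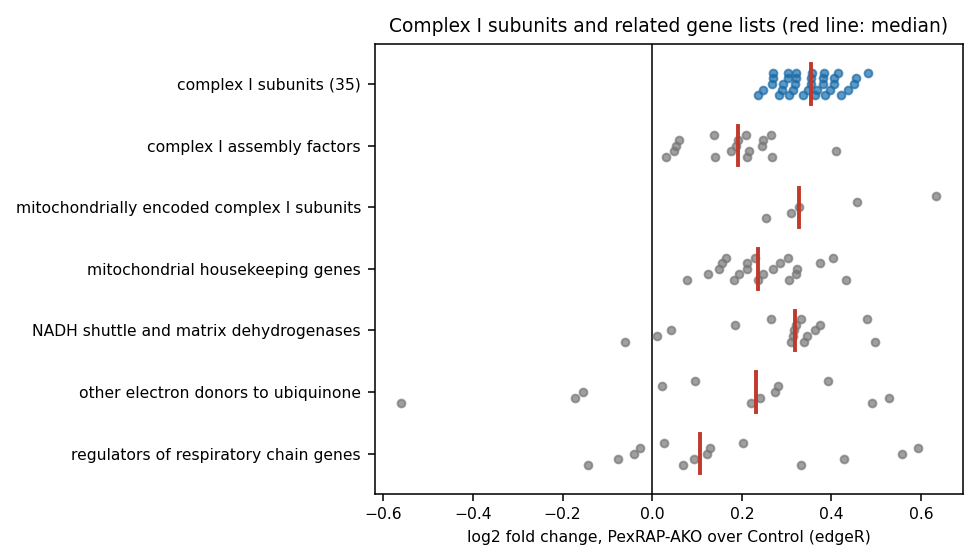
Log2 fold change, PexRAP-AKO over Control, of each gene (points) in lists of genes that work with or beside complex I; red lines mark medians. The 35 complex I subunits have a median of 0.35, the assembly factors 0.19 and the housekeeping genes 0.24.

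Sources and users of electrons around the complex gave mixed values. Of 16 genes of the NADH shuttles and matrix dehydrogenases, 15 had a positive log2 fold change (median 0.32), 9 with an unadjusted p under 0.05 and 0 past the edgeR threshold. Mdh1, the cytosolic malate dehydrogenase, had 0.48 (adjusted p = 0.143), Dld, a shared subunit of the matrix dehydrogenases, 0.36, the oxoglutarate carrier Slc25a11 0.32 and the isocitrate dehydrogenase subunit Idh3g 0.31. Of 12 other donors of electrons to ubiquinone, 9 were positive (median 0.23), with 4 higher and 1 lower at an unadjusted p under 0.05. Etfdh, which brings in electrons from fatty acid oxidation, had 0.53 (adjusted p = 0.171), the complex II anchors Sdhd 0.49 and Sdhc 0.24, and proline dehydrogenase Prodh -0.56 (adjusted p = 0.215).

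Regulators of respiratory chain genes had log2 fold changes on both sides of 0, with a median of 0.11. Of 14 tested, 10 were positive, with 3 higher and 1 lower at an unadjusted p under 0.05 and 0 past the edgeR threshold. Tfam, which packages and transcribes mitochondrial DNA, averaged 32.6 ± 1.11 CPM in Control against 37.5 ± 1.92 CPM in PexRAP-AKO, with no overlap (log2 fold change 0.20, adjusted p = 0.152). Ppargc1a, the coactivator of mitochondrial biogenesis, had 0.43 (adjusted p = 0.225), Esrra, an ERR receptor, 0.33 and Yy1 -0.14 (adjusted p = 0.219).

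Markers of brown adipocytes, which are rich in complex I, moved with the result. Of 12 tested, all 12 had a positive log2 fold change (median 0.89), 3 with an unadjusted p under 0.05 and 0 past the edgeR threshold. Their summed level was 827, 1030, 2269, 346.0 and 249.7 CPM in the Control libraries and 571, 1456, 2961, 2878 and 1480 CPM in the PexRAP-AKO libraries. Control 8 and Control 7, the lowest for complex I, were lowest here too, while Control 5 exceeded 3 of the 5 PexRAP-AKO libraries. Ucp1, the uncoupling protein that defines these cells, averaged 386 ± 461 CPM in Control against 839 ± 628 CPM in PexRAP-AKO (log2 fold change 1.12, SE 1.03, adjusted p = 0.648). Cox8b had 0.78 (adjusted p = 0.225), Ppara 0.54 and Otop1 0.81. With a covariate for the brown adipocyte score in edgeR, the median log2 fold change of the 37 members was 0.20 and 36 of 37 stayed positive. In this fit 14 members were higher at an unadjusted p under 0.05, against 5.12% of all genes.

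Markers of skeletal muscle, another tissue rich in complex I, lay on the opposite side. Of 13 tested, 0 had a positive log2 fold change (median -2.40), and 6 had an unadjusted p under 0.05, none past the edgeR threshold. Their summed level spanned 53.5 to 1459 CPM in Control, the highest being Control 8, and 54.0 to 166 CPM in PexRAP-AKO. Control 8 was thus the highest library for muscle markers and the lowest for complex I. Without it the median of the muscle markers was -1.17, and with limma voom on all libraries it was -1.27. With the muscle score as a covariate, the median of the members was 0.27. In this fit 26 members were higher at an unadjusted p under 0.05, against 7.44% of all genes. Endothelial markers, 10 of 10 with a negative log2 fold change (median -0.31) and 5 at an unadjusted p under 0.05, summed to 961 to 1181 CPM in Control and 659 to 958 CPM in PexRAP-AKO. These sums did not overlap, and 2 of the 10 genes had every PexRAP-AKO library below every Control library. Schwann cell markers had a negative log2 fold change in 6 of 7 (median -0.39). Of these, 5 had an unadjusted p under 0.05 and DESeq2 called 2 lower. The list summed to 296 to 413 CPM in Control and 299 to 362 CPM in PexRAP-AKO. Among all 14913 genes tested in edgeR, 961 were lower at an unadjusted p under 0.05. DESeq2 called 439 of the 10287 genes it gave an adjusted p, 309 of them higher. Lymphocyte markers were positive in 9 of 9 tested (median 1.34), 2 at an unadjusted p under 0.05. They summed to 9.60 to 46.0 CPM in Control and 10.8 to 132.6 CPM in PexRAP-AKO. The highest sum was that of PexRAP-AKO 6, and without this library the median of the lymphocyte markers was 0.024. None of these lists had a gene past the edgeR threshold. Macrophage markers, 9 of 10 positive (median 0.19), spanned 881 to 1821 CPM in Control and 751 to 2247 CPM in PexRAP-AKO, and epithelial markers 0.643 to 1.38 and 0.324 to 10.5 CPM. White adipocyte markers had a negative log2 fold change in 7 of 10 (median -0.09), 1 at an unadjusted p under 0.05 and 0 past the edgeR threshold. In 1 of the 10 every PexRAP-AKO library lay below every Control library, as in 1.33% of all genes. The part of white adipocytes and of endothelial, immune, epithelial and Schwann cells in the complex I result was not tested.

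**Figure D4:**
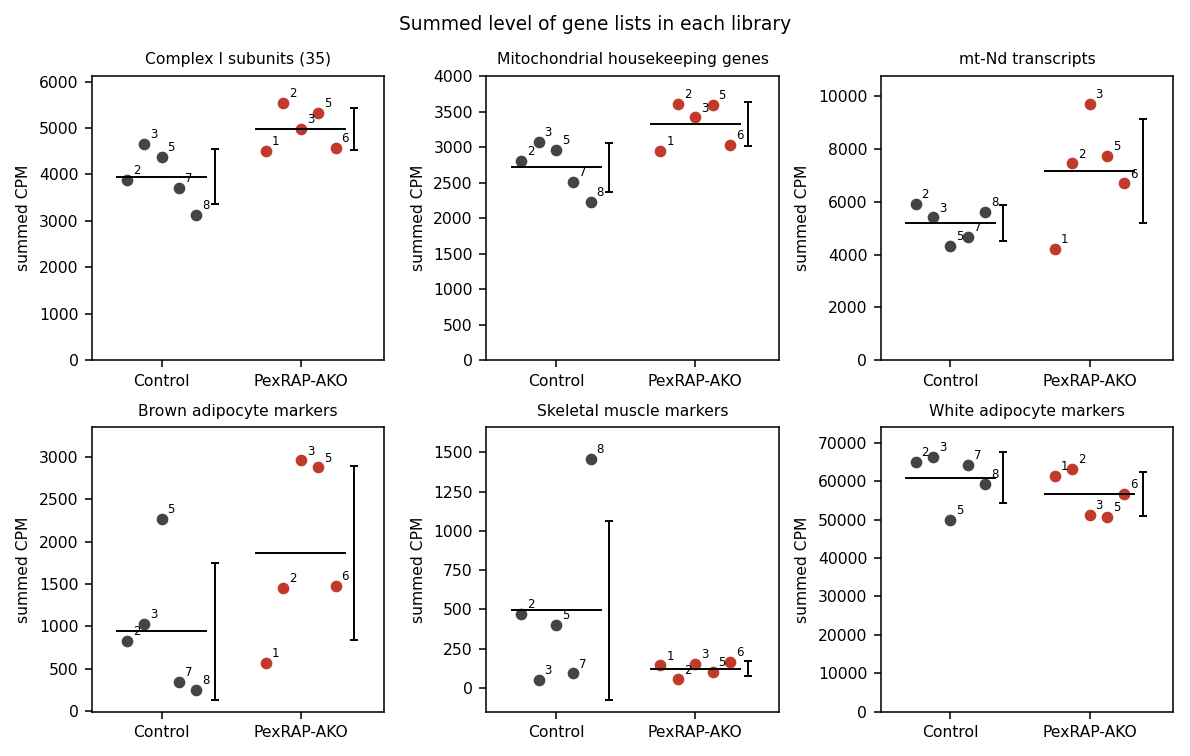
Summed CPM of 6 gene lists in each library; points are libraries with their replicate numbers, horizontal lines are group means and vertical bars are 1 SD (n = 5 each). The complex I sum is 3129 in Control 8, its lowest, and 5545 in PexRAP-AKO 2, its highest; the brown marker sum is spread more widely within each group.

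Counts of some members may hold reads of other genes. In the GENCODE M21 transcripts, 22 of 37 members shared at least 1 run of 50 bases with another gene and 9 shared over 10% of their runs. These were Ndufb6 (31.6%, with Smim27), Ndufa13 (28.5%, with Tssk6), Ndufs5 (21.7%), Ndufb4 (18.3%), Ndufs3 (17.9%), Ndufa12 (17.7%), Ndufb11 (17.5%), Ndufb9 (15.6%) and Ndufb5 (11.2%, with Mrpl47). How many counted reads of a member came from another gene was not measured, so the counts of these 9 in particular are uncertain, and the sources used here do not say whether the counting used strand. Ndufb2, Ndufb3, Ndufv3, Ndufa10, Ndufa3 and Ndufa4, the genes with separate groups, are not among these 9. Ndufb3 still shared 6.72% of its runs, Ndufb2 5.52% and Ndufv3 0.701%, while Ndufa10, Ndufa3 and Ndufa4 shared none.

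Across the ways of fitting in the plot of medians by setting, 36 of 37 members had a positive log2 fold change in every one but the fit with the mitochondrial housekeeping score, where 16 did.

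**Figure D5:**
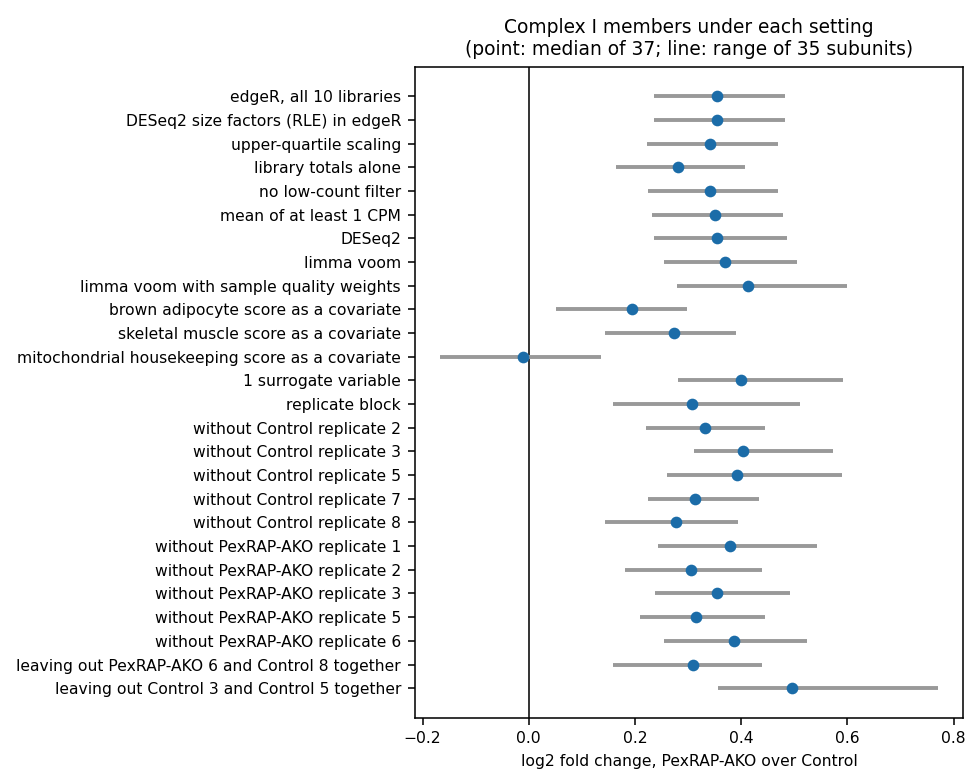
Median log2 fold change of the 37 members (points) and range over the 35 complex I subunits (lines) under each way of fitting, PexRAP-AKO over Control. The median is 0.35 with all libraries, 0.20 with a covariate for brown adipocyte markers and -0.012 with the mitochondrial housekeeping score.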

How the data were processed

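Total RNA from inguinal white fat had been sequenced in 10 libraries, 5 per group. Reads had been aligned with STAR 2.0.4b and counted with Subread featureCounts, and edgeR is named too, per the submitters' processing notes. No genome build, annotation or strand setting of the counting is given in the sources used here. The authors deposited raw counts per gene: 40724 rows for 40501 gene identifiers, 117 of which had more than 1 row with identical counts and were used once. Groups and replicate numbers came from the sample titles.

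The deposited counts were fitted in R 4.3.3 with edgeR 4.0.16 (TMM scaling, filterByExpr with a minimum count of 10 and a minimum total of 15, robust quasi-likelihood test), and p-values were adjusted by Benjamini-Hochberg over the 14913 genes tested. CPM used TMM-scaled totals, and log2 CPM a prior count of 2. The filter removed at most 0.272% of a library's counts, and all 37 members passed it. DESeq2 1.42.0, limma 3.58.1 and sva 3.50.0 gave alternatives. The fit was tested on simulated data. Scores were mean log2 CPM over a list.

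Members and gene lists were chosen with earlier results of these data known. Library values are printed for the 3 members with the smallest p in each module, for Ndufa3, added after its values were seen because its groups did not overlap, for Ndufa4 and Ndufa4l2, and for the members with the highest and lowest CPM; 1 member's own values are not reported here. Up to 4 genes with the smallest p are named per related list. Assignment to modules is textbook knowledge. Ndufb1 and Ndufb4b are not analysed here. Sequences are from RefSeq on GRCm38.p6. Gene positions, exon lengths and shared 50-base runs are from GENCODE M21, where 99.6% of identifiers were found. No 2 libraries of a group agreed within sampling noise (lowest chi-square per degree of freedom 7.73).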

Additional observations from a re-analysis of the deposited data

Results flagged for a closer look

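Among 172 groups of 5 libraries examined, covering members, named genes and list scores, 9 had a library farther from the others than Dixon's 95% critical value of 0.71 allows, where chance alone gives about 1 in 20, or 8.6. Values here are log2 CPM. Of the complex I members, Ndufv3 alone was among them: PexRAP-AKO 2 stood high at 7.86, and the nearest library of its group was at 7.55. The groups for Ndufv3 did not overlap. PexRAP-AKO 2 was the highest library of the higher group, so leaving it out could not have made them overlap.

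Among regulators, Tfam was high in Control 2 at 5.12 (nearest 5.03), Yy1 was high in PexRAP-AKO 6 at 5.75 (nearest 5.64) and Ppargc1a was low in Control 8 at 4.17 (nearest 4.73). Control 8 was also the library with the lowest complex I sum. Of muscle markers, Pvalb was low in PexRAP-AKO 2 at -2.28 (nearest 0.82), and the skeletal muscle score was low in the same library at 0.13 (nearest 2.35). The white adipocyte score was low in Control 5 at 11.59 (nearest 11.88), and the macrophage score was high there at 6.90 (nearest 6.13). The endothelial score was high in Control 8 at 6.64 (nearest 6.43).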

How the results depend on the processing

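The call count of the members depended on the tool and on the Control libraries. It was 0 with edgeR, 10 with DESeq2 and 5 with 1 surrogate variable (median log2 fold change 0.40). The shares of all genes called higher were 0.0939%, 3% (of those given an adjusted p) and 0.838%. Leaving out each library in turn gave 0 to 1 calls and medians of 0.28 to 0.40. The lowest median came without Control 8. Members higher at an unadjusted p under 0.05 in edgeR numbered 25 without PexRAP-AKO 5 (6.83% of all genes) to 36 without Control 3 (9.07%). The 1 call, Ndufa1 (edgeR adjusted p = 0.0399), came without Control 3, where 0.261% of all genes were called higher. Leaving out Control 3 and Control 5 together, chosen after seeing the data, gave 12, where 1.42% of all genes were called higher. The cause was not tested. With an adjusted p under 0.1 as the threshold, edgeR called 0 members, where 0.543% of all genes were called higher. Other scalings gave medians of 0.28 (library totals alone, which moved the median of all genes to -0.07) to 0.35. Replicate numbers 2, 3 and 5 occur in both groups, and the labels do not say what the numbers mark. The deviations of same-numbered libraries from their group means had correlations of -0.021, -0.0812 and 0.36. So few correlations cannot settle whether these libraries are paired. A fit with replicate number as a block called 0 members, with a median of 0.31, where 0.0131% of all genes were called higher. Dhrs7b kept its call and direction under all 25 alternatives.

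With the mitochondrial housekeeping score as a covariate, the median of the members was -0.012, and the log2 fold changes of these members turned negative: Ndufa9 -0.11, Ndufa11 -0.065, Ndufs3 -0.095, Ndufa12 -0.15, Ndufs7 -0.17, Ndufs6 -0.091, Ndufb9 -0.031, Ndufa6 -0.061, Ndufa5 -0.074, Ndufv2 -0.10, Ndufs1 -0.00038, Ndufa8 -0.087, Ndufb5 -0.012, Ndufc2 -0.025, Ndufb7 -0.069, Ndufc1 -0.018, Ndufv1 -0.039, Ndufb10 -0.090 and Ndufs8 -0.081. None of these passed the test in either fit. Among other named genes, the same covariate turned the sign, with Ndufab1 -0.097, Sdhd -0.063, Sdhc -0.067, Slc25a11 -0.053, Ppargc1a -0.022, Esrra -0.14, Cox8b -0.061, Ppara -0.069, Otop1 -0.23, Kng2 -0.012, Tnnt3 0.21, Tnni2 0.28 and Ucp1 -1.73. The brown adipocyte score as a covariate turned Ucp1 to -0.42, and the muscle score Pvalb to 0.097. These scores are made from the same libraries, and with 5 libraries a group the fits cannot separate a score from the group where both differ. Depth was 11274865 to 19881168 counts; the median standard error of a subunit's log2 fold change was 0.12.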
